A study of Arabidopsis thaliana with 6 samples.

Results

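The 9 Arabidopsis genes for glutamine synthetases and glutamate synthases were followed in wild-type plants and in plants given the label ucp1 ucp3 double mutant. The cytosolic glutamine synthetase genes are GLN1;1 (AT5G37600), GLN1;2 (AT1G66200), GLN1;3 (AT3G17820), GLN1;4 (AT5G16570) and GLN1;5 (AT1G48470). GS2 (AT5G35630) encodes the plastid glutamine synthetase. GLU1 (AT5G04140) and GLU2 (AT2G41220) encode the ferredoxin-dependent glutamate synthases, and GLT1 (AT5G53460) encodes the NADH-dependent one. They were chosen by locus from the 27416 genes in the deposited tables, and all 9 were found. Of these, 8 passed the filter on low counts and were tested, and GLN1;5 was not.

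RNA sequencing was done on vegetative tissue of Arabidopsis thaliana, ecotype Columbia, at an age of 21 days, from MS medium under normal conditions. Both groups, wild-type and ucp1 ucp3, hold 3 biological replicates each, share these conditions and differ in the genotype label. UCP1 and UCP3 encode mitochondrial carrier proteins named as uncoupling proteins, and which mutant alleles were combined is not given in the sources used here. How the replicates were kept apart is not described either. The p-values set the group difference against the spread between these samples, which may be technical. In bulk tissue, fewer cells of a type and less RNA per cell cannot be told apart.

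Glutamine synthetase joins ammonium to glutamate to make glutamine. Glutamate synthase then moves the amide nitrogen of glutamine onto 2-oxoglutarate and so makes glutamate again. In leaves, the plastid enzymes encoded by GS2 and GLU1 take up ammonium from nitrate reduction and from photorespiration, in which mitochondria release it from glycine. The cytosolic glutamine synthetases are known from roots, from the vasculature and from the transport of nitrogen out of ageing leaves. Among them, the products of GLN1;1 and GLN1;4 have a high affinity for ammonium and those of GLN1;2 and GLN1;3 a low one.

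The cytosolic enzymes are encoded by closely alike genes, so the sequences shown next tell how far their reads can be separated. From the coding sequence, only stretches of 60 bases that lay within a single exon and aligned without gaps in all 6 glutamine synthetase genes were compared. Of these, the stretch in which GLN1;1 is most like GLN1;2 is given for all 6 genes. It is coding in each gene, and positions are those of the RefSeq annotation on TAIR10.1. Each sequence reads 5′ to 3′ along its gene, and capitals mark the bases that differ from the first line.
GLN1;1, chr5:14934954-14935013, minus strand: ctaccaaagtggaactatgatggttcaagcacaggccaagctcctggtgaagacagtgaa
GLN1;2, chr1:24657035-24657094, minus strand: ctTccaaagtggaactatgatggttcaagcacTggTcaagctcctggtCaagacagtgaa
GLN1;3, chr3:6097985-6098044, plus strand: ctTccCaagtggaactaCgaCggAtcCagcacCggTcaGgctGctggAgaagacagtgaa
GLN1;4, chr5:5423846-5423905, minus strand: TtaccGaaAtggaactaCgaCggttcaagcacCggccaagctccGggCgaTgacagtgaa
GLN1;5, chr1:17914160-17914219, plus strand: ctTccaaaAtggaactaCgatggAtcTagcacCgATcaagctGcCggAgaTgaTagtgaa
GS2, chr5:13831622-13831681, plus strand: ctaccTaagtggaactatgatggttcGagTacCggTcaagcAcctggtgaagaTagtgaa

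In this stretch the other genes differed from the first line at 4 to 13 bases, AT1G66200 at the fewest and AT1G48470 at the most. Of the stretches compared, the one in which the leading pair is least alike has 12 differing bases. It is shown for that pair alone, since the ratio of that pair is described further on.
GLN1;1, chr5:14934635-14934694, minus strand: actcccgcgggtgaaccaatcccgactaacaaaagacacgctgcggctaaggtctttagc
GLN1;2, chr1:24656691-24656750, minus strand: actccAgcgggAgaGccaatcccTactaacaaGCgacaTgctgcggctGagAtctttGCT

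Over the whole coding sequence this pair was identical at 937 of 1071 bases, or 87.5%, with a longest identical run of 44 bases. GS2 shared 72.5% with GLN1;1, and GLU1 and GLU2 shared 76.9% with each other. Counted as 31-base words of the RefSeq mRNAs, 1.93% of those of GLN1;1 occurred in another gene, 27 of its 30 shared words in GLN1;2. The share was 1.69% for GLN1;2, at most 0.33% for the 3 other cytosolic genes, and 0 for GS2 and GLU2. GLT1 shared 1.27% of its words with its neighbour AT5G53470, and GLU1 shared 0.89% with the opposite strand of AT5G04150. Nearly all words of each mRNA were found in no other gene.

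The libraries held 1183612 to 11296137 estimated reads assigned to genes. The shallowest, ucp1 ucp3 replicate 3, stood apart on the leading principal component, at 65.7 where the other 5 lay between -28.6 and 6.28. In CPM (counts-per-million values scaled by TMM), UCP1 ranged from 67.3 to 75.3 in wild-type and from 46.6 to 67.2 in the other group, and UCP3 from 12.3 to 16.1 and from 8.68 to 10.8. Both were apart and lower in the libraries labelled ucp1 ucp3, as were 12.4% of all tested genes. The log2 fold changes were -0.35 (95% interval -0.65 to -0.05) and -0.49 (95% interval -0.91 to -0.07). Neither passed the test (edgeR adjusted p = 0.226 and 0.224). The targeted transcripts are thus no check of the labels, and the samples are described here as the libraries labelled ucp1 ucp3, or mutant-labelled.

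The labelled tissue was checked against markers of plant organs. All 5 leaf markers were detected in every library and summed to between 19440 and 24580 CPM. All 5 root markers were also detected in every library, with sums of 35.1 to 58.7 CPM for wild-type and 52.4 to 82.7 CPM for the mutant-labelled libraries, which overlap. All 5 root estimates were above 0, with a median log2 fold change of 0.62, and 0 passed. All 5 leaf estimates were above 0 as well, with a median of 0.27, and 0 passed. Groups were apart upward for 1 leaf marker, RCA, and 1 root marker, NRT2.1, beside 11.2% of all tested genes. The 4 flower markers summed to 3.48, 3.88 and 2.56 CPM in wild-type, against 5.26, 5.36 and 8.12 CPM, which were apart and higher in every mutant-labelled library. These sums rest on few reads: in ucp1 ucp3 replicate 3, AG had 1, AP1 2, AP3 2 and PI 4. Only PI had enough reads to be tested. Its groups overlapped, and it did not pass (edgeR adjusted p = 0.673). Of the 3 seed markers, OLEO1 and AT2S3 were at 0 throughout, and CRA1 had 1 read in each of ucp1 ucp3 replicates 2 and 3 and 0 elsewhere. The part of leaf, root or flower tissue in the results that follow was not tested.

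Compared per transcript length, as TPM (transcripts-per-million values summed over the models of a gene), GS2 was the most abundant member in each library. It stood at 1101, 1085 and 977 TPM in wild-type replicates 1 to 3 and at 974, 1057 and 1152 TPM in the mutant-labelled replicates. These values put it among the 99 most abundant genes of every library. GLN1;5, known from seeds, lay at the other end, with 0 reads in 5 libraries and 1 read in ucp1 ucp3 replicate 1. A floor of 3 reads equals 0.264 CPM in the deepest and 2.71 CPM in the shallowest library, so this gene was not detectable at this depth. Floors cover counting error only.

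Between these ends, the order of mean TPM in wild-type was GLN1;1, GLN1;2, GLU1, GLT1, GLN1;3, GLU2 and GLN1;4. The leading pair did not differ beyond its spread, at 322.5 to 441 TPM and at 300.4 to 351.5 TPM. In the mutant-labelled libraries GLN1;1 came after GLN1;2 and GLU1, and the order of the rest was the same. There it ranged from 163 to 235 TPM and overlapped with GLU1, at 186 to 290 TPM. All other neighbours in either order had ranges that did not overlap.

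**Figure D1:**
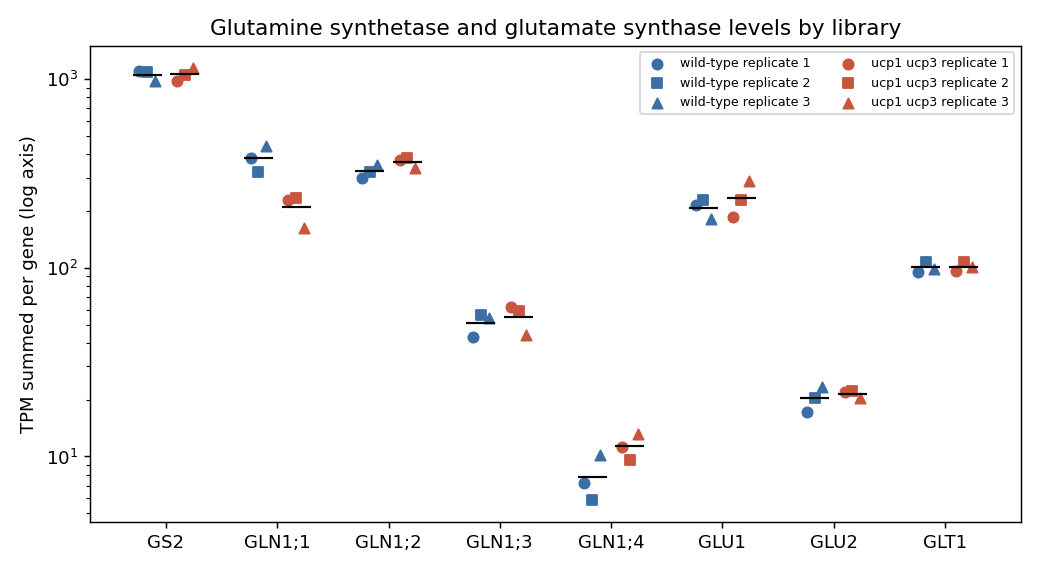
TPM summed per gene (log axis) of the 8 detected members in each of the 6 libraries, with wild-type in blue, the libraries labelled ucp1 ucp3 in red, a marker shape for each replicate and a black line at the group mean. GLN1;1 lies at 322.5 to 441 TPM in wild-type and at 163 to 235 TPM in the other group.

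GLN1;1 fell in the libraries labelled ucp1 ucp3, and it was the only one of the 8 tested members to pass. Wild-type replicates 1 to 3 gave 466.5, 385 and 545.5 CPM. Replicates 1 to 3 labelled ucp1 ucp3 gave 308, 290.5 and 216 CPM. All of the latter lay below all of the former, and the shallow replicate 3, with 239 reads, was the lowest. The mean went from 466 ± 80.2 CPM to 271 ± 49.0 CPM (SD, n = 3). By the edgeR estimate GLN1;1 stood at 58.9% of wild-type, with a 95% interval from 47.0% to 73.7%. The log2 fold change was -0.76 ± 0.15 (SE, edgeR quasi-likelihood test, adjusted p = 0.0305), ranked 95 by p among the 17415 tested genes. Among all tested genes 1.26% were called, 0.781% as higher and 0.482% as lower.

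The call was lost when some single libraries were left out, while the estimate stayed below 0. The edgeR adjusted p of GLN1;1 was 0.127 with wild-type replicate 1 left out and 0.0680 with wild-type replicate 3 left out. It was 0.0573 by edgeR with ucp1 ucp3 replicate 1 left out and 0.110 with replicate 3 of that group left out. With limma on log2(TPM + 1) the adjusted p was 0.0880. The log2 fold change without the library that stood apart, ucp1 ucp3 replicate 3, was -0.63.

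**Figure D2:**
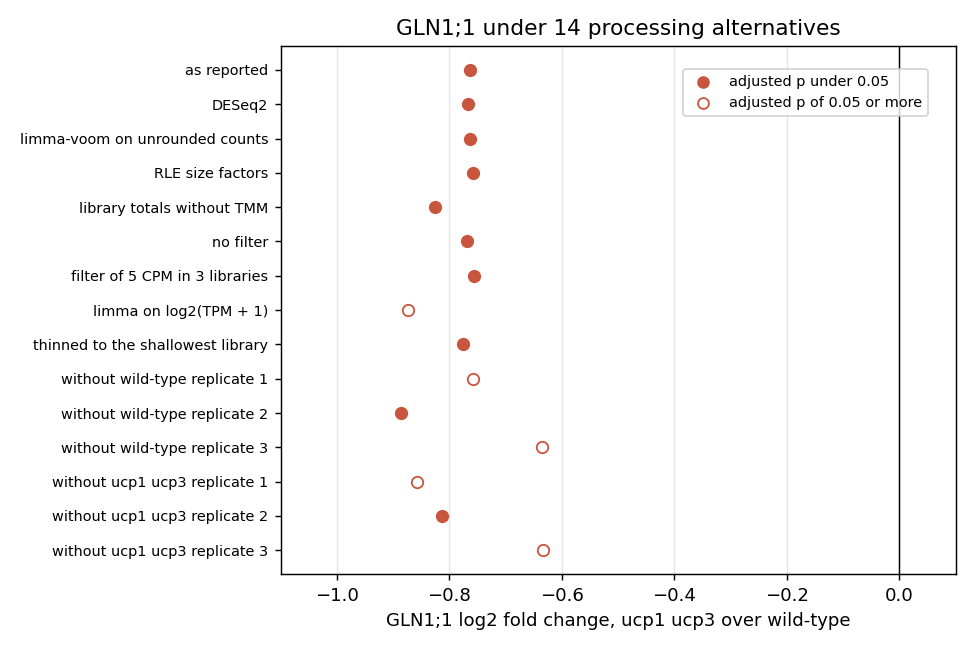
Log2 fold change of GLN1;1 (x axis, ucp1 ucp3 over wild-type) as reported and under 14 of the 15 alternatives (y axis), all but the replicate block, whose value stands with the other processing checks. Points are filled where the adjusted p was under 0.05. The estimates lie between -0.89 and -0.63, and 9 of the 14 alternatives call the gene.

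GLN1;2 had its higher values in the other group. Wild-type stood at 367, 386 and 436.5 CPM, and the mutant-labelled libraries at 503, 477 and 450.5 CPM. The ranges were apart in CPM but overlapped in TPM. The log2 fold change of 0.27 missed the threshold (95% interval 0.02 to 0.51, edgeR adjusted p = 0.256). Ranges in CPM were apart for 2 of the 8 tested members, this one upward and GLN1;1 downward, against 23.6% of all tested genes, 11.2% upward and 12.4% downward. That share of the members is near the background.

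The ratio of GLN1;1 to GLN1;2 in TPM was 1.27, 0.998 and 1.25 in the wild-type libraries, and 0.615, 0.611 and 0.480 in the mutant-labelled ones. Each mutant-labelled ratio lay below every wild-type ratio. On the log2 scale the difference of the means was -1.05. The pair was set side by side with its values known, so this is a description with no test.

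The remaining cytosolic genes were less abundant, and neither of the 2 that were tested passed. For GLN1;3 the wild-type libraries gave 46.3, 59.0 and 59.3 CPM and the mutant-labelled ones 73.6, 64.6 and 51.45 CPM, with overlap (log2 fold change 0.25, 95% interval -0.05 to 0.55). GLN1;4 rested on 16 to 112 reads per library. Its wild-type values were 7.37, 5.82 and 10.5 CPM and its mutant-labelled values 12.6, 9.85 and 14.4 CPM, which overlapped. Its log2 fold change of 0.53 had the widest interval of the tested members, 0.003 to 1.05 (edgeR adjusted p = 0.300).

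Summed over the 5 cytosolic genes, wild-type stood at 732, 707 and 857 TPM and the mutant-labelled libraries at 673, 687 and 561 TPM. The sums did not overlap in TPM. In CPM they were 887.5, 836 and 1052 in wild-type, against 897, 842 and 732, which overlapped. Fitted as 1 gene, the summed counts had a log2 fold change of -0.16 and were not called. The median log2 fold change of all tested genes was -0.10 on log2(TPM + 1) and -0.002 on the TMM-scaled counts. Of these sums GLN1;1 took 52.1%, 45.6% and 51.5% in wild-type, and 33.9%, 34.2% and 29.1% in the other group. The share of GLN1;2 was 41.0% to 45.7% in wild-type and 55.2% to 60.7% in the other group. GLN1;2 was the leading cytosolic transcript in all 3 mutant-labelled libraries and, by a narrow margin, in wild-type replicate 2.

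**Figure D3:**
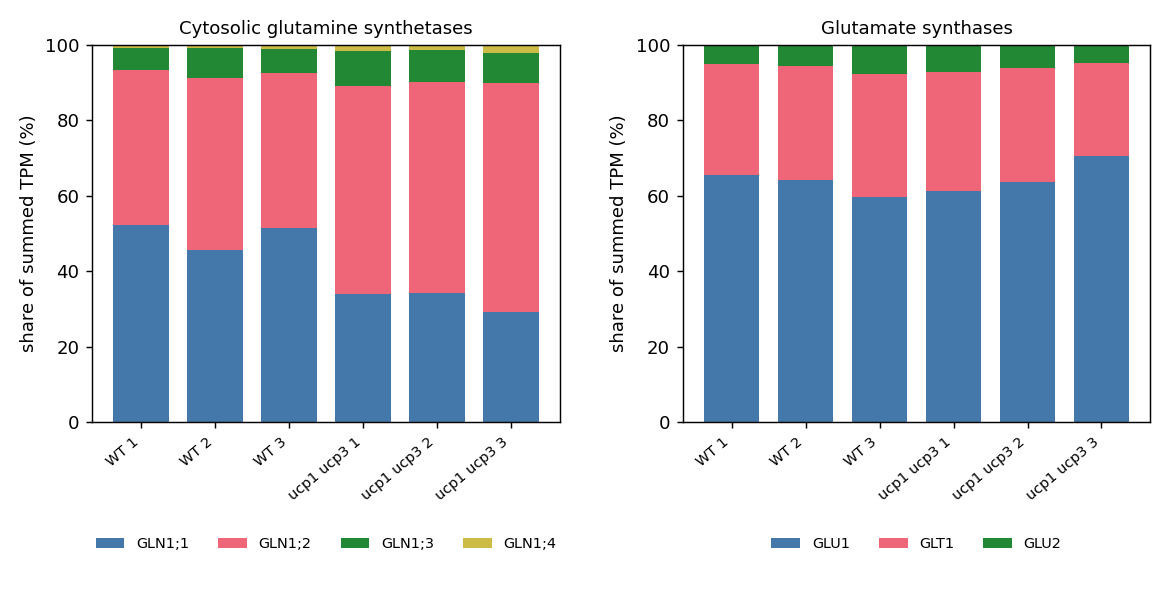
Share of summed TPM (y axis, %) held by each detected cytosolic glutamine synthetase gene (left) and each glutamate synthase gene (right) in each library (x axis, with WT for wild-type). On the left the GLN1;1 share is 45.6% to 52.1% in wild-type and 29.1% to 34.2% in the mutant-labelled libraries, while on the right the GLU1 share overlaps between the groups.

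GS2, whose product takes up the ammonium of photorespiration, did not pass. From its counts, wild-type had 1545, 1493 and 1398 CPM, against 1480, 1514 and 1736 CPM in the mutant-labelled libraries. The groups overlapped, and the highest value was that of the shallow replicate 3. The log2 fold change was 0.09 (95% interval -0.17 to 0.35, edgeR adjusted p = 0.774). GS2 held 53.3% to 60.5% of all glutamine synthetase TPM in wild-type and 59.1% to 67.3% in the other group. Summed over all 6 glutamine synthetase genes, the TPM ranged from 1793 to 1834 in wild-type and from 1647 to 1744 in the other group, which did not overlap. In CPM the same sums were 2432, 2330.0 and 2450.0 in wild-type, against 2378, 2356 and 2468, which overlapped.

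Neither ferredoxin-dependent glutamate synthase gene passed. GLU1, the main form in leaves, gave 1006, 1059 and 861 CPM in wild-type, against 950.3, 1076 and 1454 CPM in the mutant-labelled libraries. The highest value was again that of the shallow replicate 3, and the groups overlapped. The log2 fold change of GLU1 was 0.25 with that library (95% interval -0.08 to 0.57) and 0.06 without it. GLU2, a minor form in leaves, gave 84.5, 99.2 and 117 CPM, against 118, 110.1 and 108 CPM, with overlap (log2 fold change 0.17, 95% interval -0.11 to 0.44).

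GLT1, whose product draws electrons from NADH and serves mainly tissues without photosynthesis, did not pass and varied little. Wild-type gave 603, 673 and 639 CPM, against 670.1, 688 and 686 CPM in the mutant-labelled libraries, and the groups overlapped. The log2 fold change of GLT1 was 0.09 (95% interval -0.14 to 0.33, edgeR adjusted p = 0.738). Of the summed glutamate synthase TPM, the mean share of GLU1 was 63.1% ± 3.14 in wild-type and 65.1% ± 4.83 in the other group (SD, n = 3). The mean shares of GLT1 were 30.7% and 28.8%, and those of GLU2 were 6.23% and 6.12%.

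**Figure D4:**
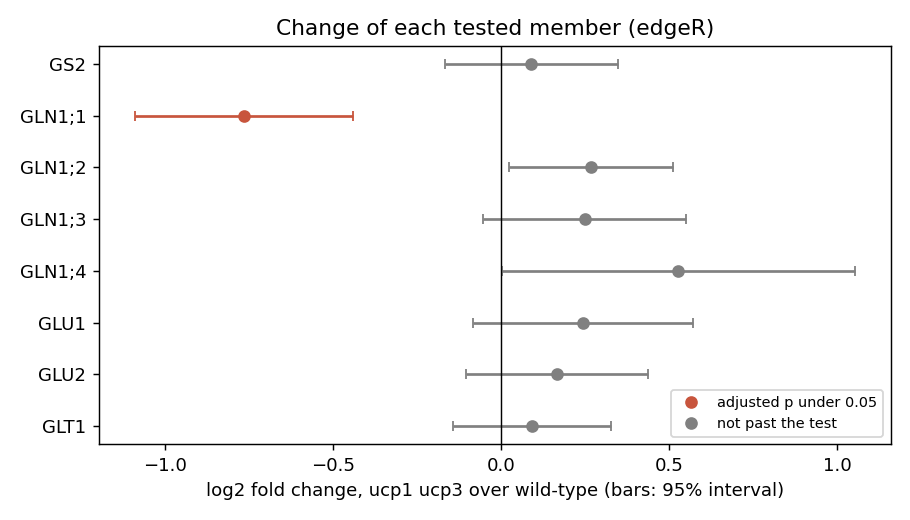
Log2 fold change of the 8 tested members (x axis, ucp1 ucp3 over wild-type) with 95% intervals from the edgeR standard errors, in red for an adjusted p under 0.05 and grey otherwise. GLN1;1 lies at -0.76, and the other 7 lie between 0.09 and 0.53.

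Counted together, 0 of the 8 tested members were called higher, 1 was called lower and 7 did not pass. Estimates were above 0 for 7 of the 8, where 49.7% of all tested genes had an estimate above 0. The median log2 fold change of the members was 0.21, beside that of -0.002 over all tested genes. An unadjusted edgeR p under 0.05 was reached by 3 members, GLN1;1, GLN1;2 and GLN1;4, and by 16.4% of all tested genes.

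Several loci are listed as more than 1 transcript model, and the 9 genes hold 16 models in all. The 3 GS2 models share their coding sequence in the RefSeq annotation and differ outside it. Model 3 took 57.7%, 56.1% and 53.8% of the estimated GS2 counts in wild-type, and 69.5%, 51.4% and 62.1% in the other group, so the groups overlapped. Nearly all of the rest went to model 1, and model 2 had at most 0.253%.

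The GLU1 models differ in coding sequence, at 4869 and 4947 bases, and are told apart by 320 and 102 of their own 31-base words. Model 1 took 69.7%, 52.4% and 58.0% of the estimated GLU1 counts in wild-type, and 27.1%, 54.0% and 42.6% in the other group. The lowest share was that of ucp1 ucp3 replicate 1, which was also the lowest for model 1 of GS2, at 30.2% where the other 5 libraries had 37.9% to 48.4%. Summed over models, GLU1 and GS2 of that library lay within the range of the others in CPM. In TPM its GS2 level was the lowest of the 6, at 974 where the next was 977. The words come from the RefSeq mRNAs, which may differ from the transcripts behind the deposited tables.

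GLT1 model 1 took 87.5% to 96.4% of the GLT1 counts. Model 2 had at least 7.66% in each wild-type library and 0 to 5.85% in the mutant-labelled ones, and model 3 had 0.004% to 1.48% and 2.33% to 11.6%. The groups were apart for both, which share 1 coding sequence and are told apart by 26 and 28 words of their own. In wild-type replicates 1 to 3, model 3 had 43.7, 0.101 and 0.457 estimated reads. No test was made on models, and the share of all models with groups apart was not counted. GLN1;2 was counted as model 1 for 98.6% or more of its reads.

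**Figure D5:**
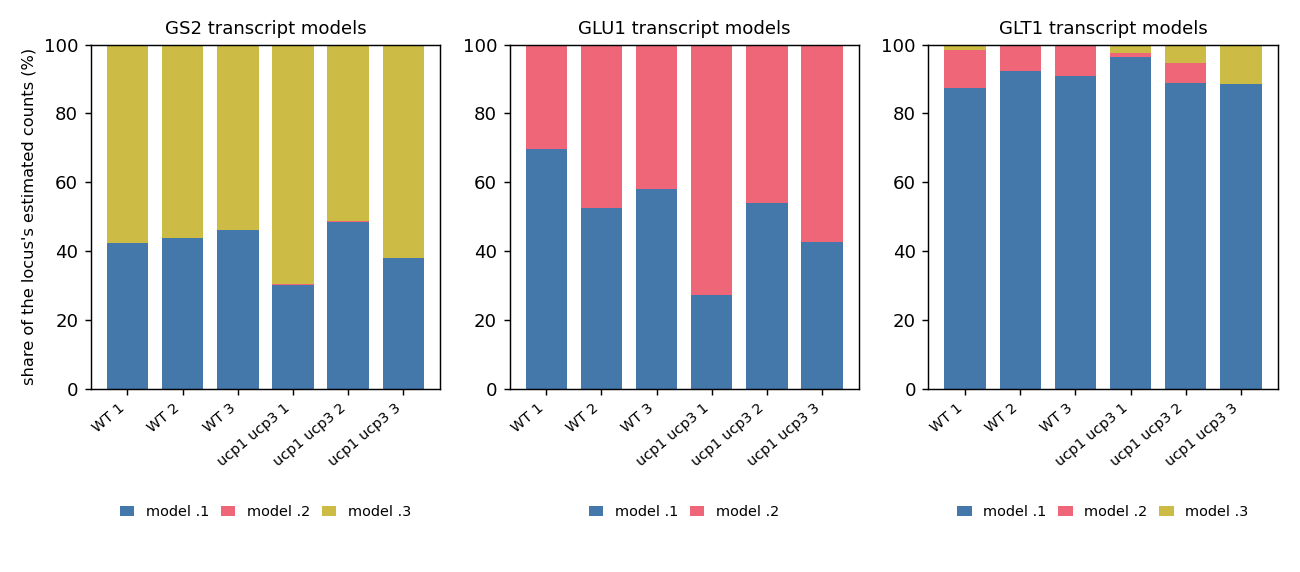
Share of a locus's estimated counts (y axis, %) given to each transcript model of GS2, GLU1 and GLT1 in each library (x axis, with WT for wild-type). GLU1 model 1 ranges from 27.1% in ucp1 ucp3 replicate 1 to 69.7% in wild-type replicate 1, while GLT1 model 1 holds 87.5% or more throughout.

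Other genes were ranked by the Pearson correlation of their log2 CPM with GLN1;1 over the 6 libraries, among 12472 genes that averaged 10 CPM or more. The 3 most alike were AT4G15000 (r = 0.998), AT5G52190 (r = 0.998) and NTF2B (AT1G27970, r = 0.995). RefSeq annotates them as a ribosomal L27e protein, a sugar isomerase family protein and a nuclear transport factor. The points share their libraries and depths. These r values are the highest among 12472 genes over only 6 libraries, so they were picked for being high. They also leave out the size of a change. AT4G15000 ranged from 199 to 230 CPM, where GLN1;1 ranged from 216 to 545.5 CPM. None of the 3 passed, with log2 fold changes of -0.12, -0.36 and -0.48 (edgeR adjusted p = 0.615, 0.233 and 0.0870).

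No tested gene of the steps that supply ammonium passed. Among 7 genes of nitrate reduction and ammonium uptake the median log2 fold change was 0.08. NIA2, a nitrate reductase gene, averaged 1394 ± 73.2 CPM in wild-type, against 1657 ± 277 CPM (SD, n = 3, edgeR adjusted p = 0.396), and the ammonium transporter gene AMT1;3 averaged 26.3 and 27.4 CPM. Among 10 genes of photorespiratory ammonium release the median was 0.002. GLDP2, for the P protein of glycine decarboxylase, averaged 473 and 404 CPM, and GLDH2, for the H protein, 44.2 and 49.8 CPM. The groups overlapped for all 17 genes.

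The list of plastid supply holds genes for the exchange of oxo acids and glutamate, for ferredoxins and their reductases, for the PII sensor and for cytosolic isocitrate dehydrogenase. Of its 12 tested genes 0 passed, and the median was -0.02. The groups were apart for 4, 1 upward and 3 downward, beside 23.6% of all tested genes. With no filter on low counts 1 was called lower. RFNR1 and RFNR2, root-type ferredoxin reductase genes, had the smallest p-values and estimates of opposite sign. RFNR1 gave 54.45, 58.45 and 73.4 CPM in wild-type, against 42.3, 44.6 and 39.7 CPM (log2 fold change -0.54, edgeR adjusted p = 0.0659). RFNR2 gave 57.1, 73.1 and 57.4 CPM, against 83.2, 82.1 and 82.15 CPM (log2 fold change 0.40, edgeR adjusted p = 0.111). Each pair of groups was apart.

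Among 18 tested genes that use glutamine or glutamate, 2 rose, 0 fell and 16 did not pass, with a median of -0.11. The groups were apart for 10 of these genes. Over all tested genes 1.26% were called. Groups were apart for 23.6% of all tested genes, with the mutant-labelled libraries higher for 11.2% and lower for 12.4%. ASN1 encodes an asparagine synthetase that takes the amide of glutamine, and it gave 96.0, 93.6 and 48.8 CPM in wild-type, against 733, 420 and 713 CPM. GDH1, for a subunit of glutamate dehydrogenase, gave 128, 149 and 131 CPM, against 253, 176 and 196 CPM. All mutant-labelled values of both genes exceeded all wild-type ones, and the log2 fold changes were 2.96 ± 0.35 and 0.62 ± 0.14 (SE, edgeR adjusted p = 0.0264 and 0.0424). Of the 10, the mutant-labelled libraries were higher for 3 and lower for 7, none of which passed as lower. Leaving out ucp1 ucp3 replicate 1 or ucp1 ucp3 replicate 3 ended both calls, while the log2 fold change of ASN1 stayed between 2.70 and 3.19 in all 15 alternatives. GDH1 lost its call in 8 of 15 alternatives, which also include leaving out wild-type replicate 1 or 3, limma-voom, limma on log2(TPM + 1) and library totals without TMM. DESeq2, thinning and leaving out ucp1 ucp3 replicate 2 each called 1 gene of the list lower.

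GLN1;1 is known to be active in ageing leaves. Of 7 tested leaf senescence genes 0 passed, with a median of -0.02, and estimates were above 0 for 3. The groups were apart for 3 others, each lower in the mutant-labelled libraries. Among all tested genes 23.6% were apart, and 12.4% were apart downward. SAG12, a late senescence marker, had 0 reads in every library. The regulator gene WRKY53 gave 16.0, 16.9 and 21.6 CPM in wild-type, against 6.17, 11.7 and 6.32 CPM (edgeR adjusted p = 0.0596). PAO, for an enzyme of chlorophyll breakdown, averaged 96.5 ± 11.1 CPM and 71.9 ± 8.87 CPM (SD, n = 3). The groups of both genes were apart, and 1 senescence gene was called lower with DESeq2, with no filter, with thinning to the shallowest library, and with wild-type replicate 2 or ucp1 ucp3 replicate 2 left out. The part of leaf age in the fall of GLN1;1 was not tested.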

How the data were processed

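For each of the 6 libraries the authors deposited, per transcript model (35386 models), estimated counts and TPM. Kallisto, DESeq2 and the TAIR10 build are named in the submitters' processing notes. Versions, the transcript index and the strand setting are not given in the sources used here.

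The deposited estimated counts were summed per locus and rounded to whole numbers. The test was edgeR's robust quasi-likelihood F test (version 4.0.16 in R 4.3.3, default filter, TMM, genotype as the only term), with Benjamini-Hochberg adjustment over 17415 genes and calls at an adjusted p under 0.05. Standard errors are the size of the estimate over the square root of F, and 95% intervals use the test's degrees of freedom. The TPM values deposited by the authors, summed per locus, served to compare levels between genes.

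The members, the 5 other gene lists and the markers were chosen with earlier results of these data known. All members are named, with every called gene of each list or, where none was called, the 2 of smallest p, and the 3 genes most like a called member, using log2(CPM + 0.5). SAG12 and the listed markers are named besides. Shared sequence was counted on RefSeq mRNAs of TAIR10.1, and coding sequences were aligned with Biopython 1.88.

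Replicates differed by more than sampling noise, with a chi-square over degrees of freedom of 2.50 to 6.70. In a simulation of this comparison with 17207 tested genes, the test recovered 17.9% of 1.5-fold, 76.1% of 2-fold and 93.9% of 4-fold changes. Of its 137 calls 12 were false, and 6 genes were called where no gene had been changed. The simulated counts followed the model and the dispersions fitted by the same test. No simulated library was made to stand apart, so the simulation does not cover a library such as ucp1 ucp3 replicate 3. The alternatives were other tests (DESeq2 1.42.0, limma 3.58.1 with voom or on log2(TPM + 1)), scalings, filters, thinning, a replicate block and leaving out each library.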

Additional observations from a re-analysis of the deposited data

How the results depend on the processing

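GLN1;1 was lower in all 15 alternatives and called in 9, with log2 fold changes from -0.89 to -0.63. The members called lower numbered 0 with the replicate block and with limma on log2(TPM + 1), and 0 to 1 with 1 library left out. The other 7 tested members were called in 0 of 109 fits and reversed in 0. For GS2, GLU1, GLU2 and GLT1 these fits include the one with the cytosolic genes summed as 1 gene. DESeq2 gave no adjusted p for GLN1;4, which was taken as not called. The labels do not pair the replicates: deviations of same-numbered libraries correlated at -0.09 to -0.006. With the replicate block the edgeR adjusted p of GLN1;1 was 0.0538, GDH1 lost its call, and 45 genes in place of 84 were called lower. Over all genes, calls higher and lower were 136 and 84 as reported, 229 and 158 with DESeq2, 267 and 223 without a filter and 10 and 6 with limma on log2(TPM + 1). Leaving out 1 library gave 31 to 326 higher and 16 to 347 lower. Library totals without TMM split the calls into 109 higher and 110 lower. By estimated counts in place of TPM, the mean GLU1 share was 56.8% in wild-type and 58.9% in the labelled mutants, against 63.1% and 65.1%, since counts are not divided by length. Depth limits GLN1;5, which was not detectable, and GLN1;4, at 16 reads in the shallowest library.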
